A study of Mus musculus with 12 samples.

Results

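Acute phase proteins are plasma proteins that the liver makes in larger or smaller amounts during inflammation. The set described here holds 10 mouse genes chosen by name: Il6ra, which encodes the ligand-binding chain of the interleukin-6 receptor, the serum amyloid A genes Saa1, Saa2 and Saa4, the pentraxin genes Crp and Apcs, haptoglobin (Hp), hemopexin (Hpx), the orosomucoid gene Orm1 and Lrg1, the gene of leucine-rich alpha-2-glycoprotein. Of these 10 genes, 9 had a transcript cluster of their own among the 22180 genes tested, where a transcript cluster is the group of short array probes that is summarised into 1 value. Saa1 was read only by a cluster annotated to Saa1 and Saa2 together, so that cluster is given as the shared Saa1/Saa2 cluster and Saa1 alone has no value.

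The livers came from 6 wild-type mice (WT) and 6 mice with a knockout of Ppara (Ppara KO), all adult C57Bl/6 females of 12 to 14 weeks kept on a light and dark cycle, with 1 Affymetrix MoGene 2.0 ST array for each mouse. The labels name no treatment for either group, and they do not give the allele, the cell types in which the gene was disrupted, the time of day or the feeding state. The comparison asks how liver transcripts differ when PPARα, a receptor activated by fatty acids, is disrupted. Values are on the log2 scale, and a gene was called when the limma adjusted p, corrected by the Benjamini-Hochberg method over all 22180 genes, was under 0.05. Counts at an unadjusted limma p under 0.05 are also given for lists. The share of all genes at that p was not counted, so such a count shows neither an excess nor a direction particular to a list.

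Array medians lay between 4.13 and 4.17. The cluster of Ppara itself did not separate the genotypes, with WT livers at 7.71 to 8.14 and Ppara KO livers at 7.81 to 8.16, and the sources used here do not say where its probes lie relative to the disrupted part. The hepatocyte markers were present on every array, with a mean over 10 genes that ran from 11.51 to 11.61 among WT livers and from 11.56 to 11.65 among Ppara KO livers. Of these 10 markers 2 rose and 0 fell (20.0%, against 10.2% of all genes tested), with the same counts at an unadjusted p under 0.05. The rises were Cyp2e1 (0.24, limma adjusted p = 0.00967) and Pck1 (0.30, adjusted p = 0.0374). Both showed no overlap of the groups, as did 6.51% of all genes tested. The genotypes also stood apart in Dbp, a gene with a strong daily rhythm, which ranged from 5.99 to 7.09 among WT livers and from 9.05 to 10.17 among Ppara KO livers, and the part of clock state in the results below was not tested. Fewer cells of a type and less RNA per cell cannot be told apart in whole liver.

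In the acute phase response, interleukin-6 binds its receptor chain on hepatocytes, which joins the gp130 chain and activates JAK kinases and the transcription factor STAT3. Interleukin-1 and tumour necrosis factor add a signal through NF-κB, and C/EBP factors bind many of the same promoters. SAA1 and SAA2 are apolipoproteins of high-density lipoprotein that can rise very strongly in inflammation, whereas SAA4 is made constitutively. In mice the pentraxin that responds to inflammation is serum amyloid P component, encoded by Apcs, and C-reactive protein responds little.

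The upstream sequences are shown because Saa1 and Saa2 could not be read apart on the array, with Saa4 as the constitutive family member beside them, and because Apcs and Lrg1 held the matches to interleukin-6 response motifs described below. Each is the 250 bases before the RefSeq gene start in build GRCm38.p6, read 5′ to 3′ on the strand of the gene, at chr7:46742981-46743230 (minus strand) for Saa1, chr7:46751583-46751832 (plus strand) for Saa2, chr7:46732604-46732853 (minus strand) for Saa4, chr1:172895055-172895304 (minus strand) for Apcs and chr17:56121947-56122196 (minus strand) for Lrg1. Capitals mark matches to a C/EBP motif (TTNNGCAA), a STAT3 motif (TTCNNNGAA) or an interleukin-6 type 2 element (CTGGGAA) on either strand.
Saa1: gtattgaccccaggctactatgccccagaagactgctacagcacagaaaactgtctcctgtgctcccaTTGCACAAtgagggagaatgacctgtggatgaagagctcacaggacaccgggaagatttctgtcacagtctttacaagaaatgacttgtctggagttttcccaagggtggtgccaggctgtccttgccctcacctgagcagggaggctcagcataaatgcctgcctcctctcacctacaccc
Saa2: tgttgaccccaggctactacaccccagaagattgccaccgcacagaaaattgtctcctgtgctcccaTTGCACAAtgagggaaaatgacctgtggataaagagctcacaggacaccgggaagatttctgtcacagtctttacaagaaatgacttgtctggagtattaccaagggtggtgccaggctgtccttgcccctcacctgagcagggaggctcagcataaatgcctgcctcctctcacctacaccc
Saa4: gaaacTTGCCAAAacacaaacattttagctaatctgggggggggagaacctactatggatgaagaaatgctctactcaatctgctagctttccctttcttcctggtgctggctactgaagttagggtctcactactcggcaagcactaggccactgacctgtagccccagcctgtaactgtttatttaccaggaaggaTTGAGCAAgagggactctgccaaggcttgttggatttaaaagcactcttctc
Apcs: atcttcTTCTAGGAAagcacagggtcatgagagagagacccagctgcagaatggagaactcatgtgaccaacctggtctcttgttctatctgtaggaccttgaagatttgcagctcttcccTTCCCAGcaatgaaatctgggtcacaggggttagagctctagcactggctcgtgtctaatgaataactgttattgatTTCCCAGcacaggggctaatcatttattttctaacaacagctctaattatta
Lrg1: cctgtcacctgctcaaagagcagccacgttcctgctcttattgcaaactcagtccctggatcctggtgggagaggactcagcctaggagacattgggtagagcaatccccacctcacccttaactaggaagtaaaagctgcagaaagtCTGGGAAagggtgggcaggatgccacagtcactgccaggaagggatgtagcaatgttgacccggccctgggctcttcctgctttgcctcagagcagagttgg
In a global alignment, the Saa1 and Saa2 windows were identical at 238 of 251 aligned columns (94.8%), whereas Saa1 and Saa4 were identical at 49.5%. The C/EBP match lay at -182 to -175 before the start of Saa1 and at -183 to -176 before that of Saa2, with the same letters in both. The RefSeq table held 8 member promoters and none for Hp and Orm1, so those genes were not searched. Of the 8, 4 held a C/EBP match (Saa1, Saa2, Saa4 and Hpx), against 9.56% of all 32851 windows of this length. As the Saa1 and Saa2 windows are nearly identical, their matches are not independent of each other in these counts. The STAT3 motif was found in 1 of the 8 (Apcs) against 7.02% of all windows, and the type 2 element in 2 of the 8 (Apcs and Lrg1) against 9.10%. An NF-κB motif (GGG and CC with 5 bases of any kind between them) matched 6 of the 8, against 45.8% of all windows, and neither the PPAR response element (2 copies of AGGNCA with 1 base between them, 0.338% of all windows) nor the HNF1 motif (GTTAAT and ATTAA with 1 base between them, 0.0609%) matched any of the 8. The Crp window held 3 and the Il6ra window 2 NF-κB matches, some of which overlap each other. A match is a description of the letters and no evidence of binding.

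Between the genotypes, the receptor gene rose and Lrg1 fell, and none of the 7 other measured members was called. Il6ra was 1.29-fold higher and Lrg1 was 1.66-fold lower in Ppara KO. Thus 2 of 9 members were called, against 10.2% of all genes tested (4.46% higher and 5.77% lower). The median difference of the 9 members was -0.07, and that of all genes tested was 0.01. The samples are separate mice per the labels, so the spread is that between animals.

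**Figure D1:**
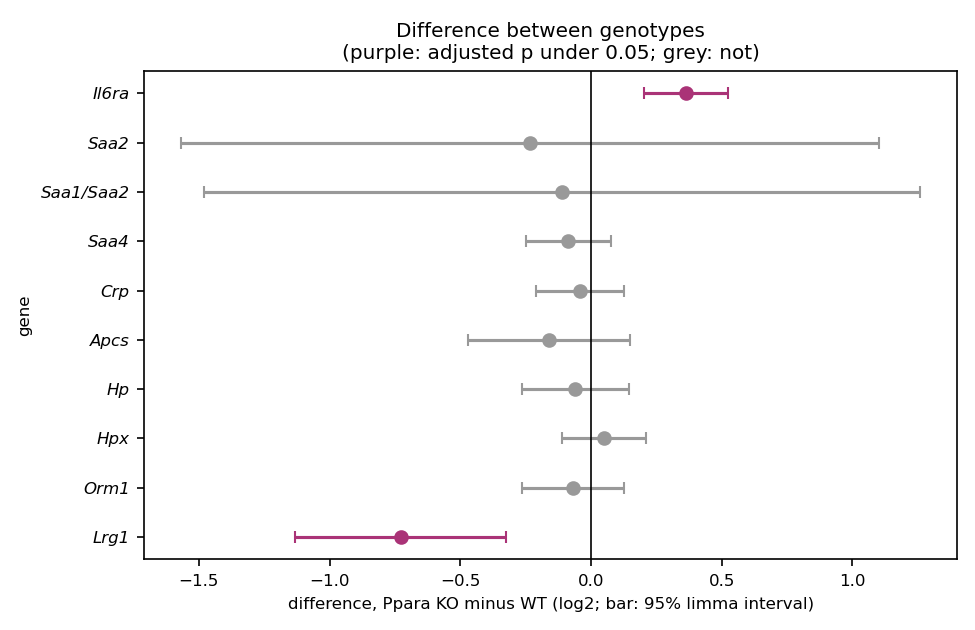
Difference between Ppara KO and WT (horizontal axis, log2) for the 9 members and the shared Saa1/Saa2 cluster, with points for the estimate and bars for the 95% limma interval. Il6ra (0.36) and Lrg1 (-0.73), drawn in purple, passed an adjusted p under 0.05, and the intervals of Saa2 and the shared cluster are far wider than the others.

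Il6ra, through whose product hepatocytes sense interleukin-6, was at 8.74 (lowest), 8.82 (median) and 8.97 (highest) in WT and at 8.98, 9.26 and 9.34 in Ppara KO. All 6 Ppara KO livers lay above all 6 WT livers, although the lowest of them, animal 4, was only just above WT animal 4. Such a complete separation was seen in 6.51% of all genes tested. The means were 8.84 ± 0.10 and 9.20 ± 0.13 (SD, n = 6 each), a difference of 0.36 (SE 0.075, 95% interval 0.20 to 0.52, limma adjusted p = 0.00565). An exact 2-sided permutation test of this single gene gave p = 0.00216, the smallest that 6 against 6 animals can give. The change is small: limma's treat test against a 1.2-fold change did not call it.

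Lrg1, whose product is a secreted glycoprotein that modulates TGF-β signalling in vessels, was at 9.64 (lowest), 9.78 (median) and 10.47 (highest) in WT and at 8.45, 9.31 and 9.76 in Ppara KO. In 5 of the 6 Ppara KO livers it was below every WT liver, and only Ppara KO animal 3, at 9.76, lay within the WT range. The means were 9.90 ± 0.30 and 9.17 ± 0.45 (SD, n = 6 each), a difference of -0.73 (SE 0.189, 95% interval -1.13 to -0.32, limma adjusted p = 0.0224), with an exact 2-sided permutation p of 0.00649. Treat against a 1.2-fold change did not call Lrg1, and when p-values were adjusted over all 41345 transcript clusters of the table its adjusted p became 0.0534.

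In the RefSeq gene order Lrg1 lies next to Plin5, which encodes a lipid droplet coat protein and is a known PPARα target. Plin5 ran from 7.34 to 7.50 among WT livers and from 4.82 to 6.33 among Ppara KO livers, a difference of -1.82 (SE 0.190, limma adjusted p = 2.16e-05). The gene on the other side of Lrg1, Sema6b, was not called (0.14, adjusted p = 0.537). Neither neighbour of Il6ra was called: She had a difference of 0.09 (adjusted p = 0.633) and Atp8b2 of -0.11 (adjusted p = 0.548). Called neighbours also lay beside members that were not called. Col27a1, a collagen gene before Orm1, rose by 0.43 (adjusted p = 0.00986). Olfr16, an olfactory receptor gene after Apcs, fell by 0.60 (adjusted p = 0.0176). The means of Olfr16, 2.13 in WT and 1.53 in Ppara KO, were far below every array median, so its call comes from a very dim signal. Neighbours were looked up for all 10 genes after the results for the members were known.

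Adipocyte markers differed between animals of the WT group, with a mean over 9 genes of 5.07 in animal 1, 5.87 in animal 3 and 5.77 in animal 5. In the other WT animals (2, 4 and 6) this mean was 4.31, 4.30 and 4.54, and the Ppara KO animals lay between 4.13 and 4.39. Of these 9 genes 2 fell and 0 rose by limma's adjusted p (22.2%, against 10.2% of all genes tested), and 7 were lower and 0 higher at an unadjusted p under 0.05. Adipoq, the adiponectin gene, and Lipe, a lipase gene, were the calls. Without WT 1, 3 and 5 the difference of Il6ra was 0.31 (adjusted p = 0.0999) and that of Lrg1 was -0.83 (adjusted p = 0.0908), so both kept their direction but neither was called with 3 WT animals left. The values of Lrg1 in WT 1, 3 and 5 were 9.64, 9.77 and 9.98.

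Saa2 was the most variable member. It was at 7.97 (lowest), 10.34 (median) and 11.56 (highest) in WT and at 8.69, 9.36 and 11.86 in Ppara KO, a 12.1-fold span among the WT livers and a 9.0-fold span among the Ppara KO livers. The groups overlapped almost completely: 5 of 6 Ppara KO animals lay inside the WT range. The means of 9.90 ± 1.45 and 9.66 ± 1.18 (SD, n = 6 each) differed by -0.23 (SE 0.63, 95% interval -1.57 to 1.10, limma adjusted p = 0.883). With this spread the interval holds both a marked fall and a marked rise, so these 12 arrays set no close limit on a difference in Saa2. Without WT animal 4 the difference was 0.10 in the other direction.

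The shared Saa1/Saa2 cluster followed Saa2 from animal to animal, with 8.06 (lowest), 9.80 (median) and 11.72 (highest) in WT and 8.61, 9.22 and 11.58 in Ppara KO. Its difference was -0.11 (95% interval -1.48 to 1.26, limma adjusted p = 0.960 over all clusters). The annotation gives this cluster to both genes, so its likeness to Saa2 is no separate measurement of Saa1. Saa4, the constitutive family member, varied far less, with 11.75 (lowest), 11.90 (median) and 12.22 (highest) in WT and 11.76, 11.83 and 11.92 in Ppara KO. All 6 Ppara KO values of Saa4 lay within the WT range, and its difference was -0.09 (95% interval -0.25 to 0.08, adjusted p = 0.567).

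The standard deviation (SD) within a genotype, pooled over both, was 1.32 for Saa2, the second largest among the 22180 genes. The largest belonged to Saa3, the remaining gene of the family (1.82), a gene that the rule does not hold, and the third to A2m (1.195), which encodes alpha-2-macroglobulin, another acute phase protein. Among the 222 genes of the top 1% by this SD were 1 of the 9 members, Saa2, and 8 of 29 other positive acute phase genes: Saa3, Orm2, Orm3, Serpina1e, Lcn2, Cd14, A2m and Il1rn. Of the 9 adipocyte markers 6 were in that top 1%, and of the 13 neutrophil markers 3, S100a8, S100a9 and Ngp. Lrg1 and Apcs had within-genotype SDs of 0.385 and 0.288, and the other members lay between 0.116 (Il6ra) and 0.172 (Hp), near the median of all genes, 0.164, or below it.

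The pentraxin genes were not called. Apcs was at 9.22 (lowest), 9.34 (median) and 9.98 (highest) in WT and at 9.07, 9.18 and 9.86 in Ppara KO. The values of 4 of the 6 Ppara KO animals were below every WT value, but Ppara KO animals 3 and 4 were not, and the difference of -0.16 had a 95% interval of -0.47 to 0.15 (adjusted p = 0.581). Crp, its neighbour in the gene order, was at 11.05, 11.35 and 11.46 in WT and at 11.17, 11.23 and 11.42 in Ppara KO. The Ppara KO values of Crp all fell inside the WT range, which WT animal 1 extended downwards, and the difference of -0.04 had an interval of -0.21 to 0.13 (adjusted p = 0.819).

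The scavengers of haemoglobin and haem were also not called. Hp, whose product binds free haemoglobin, was at 11.91 (lowest), 12.01 (median) and 12.18 (highest) in WT and at 11.69, 11.92 and 12.34 in Ppara KO. The Ppara KO animals thus spanned a wider range than the WT animals, from animal 6 below every WT value to animal 3 above them. Its difference was -0.06 (95% interval -0.26 to 0.14, adjusted p = 0.783). Hpx, whose product binds free haem, was at 12.26, 12.38 and 12.64 in WT and at 12.31, 12.42 and 12.63 in Ppara KO, with a difference of 0.05 (95% interval -0.11 to 0.21, adjusted p = 0.773). Orm1, which encodes a drug- and lipid-binding plasma glycoprotein, was at 11.20, 11.31 and 11.61 in WT and at 11.12, 11.23 and 11.57 in Ppara KO. The groups overlapped for Hpx and Orm1 as well, and the difference of Orm1 was -0.07 (95% interval -0.27 to 0.13, adjusted p = 0.727).

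**Figure D2:**
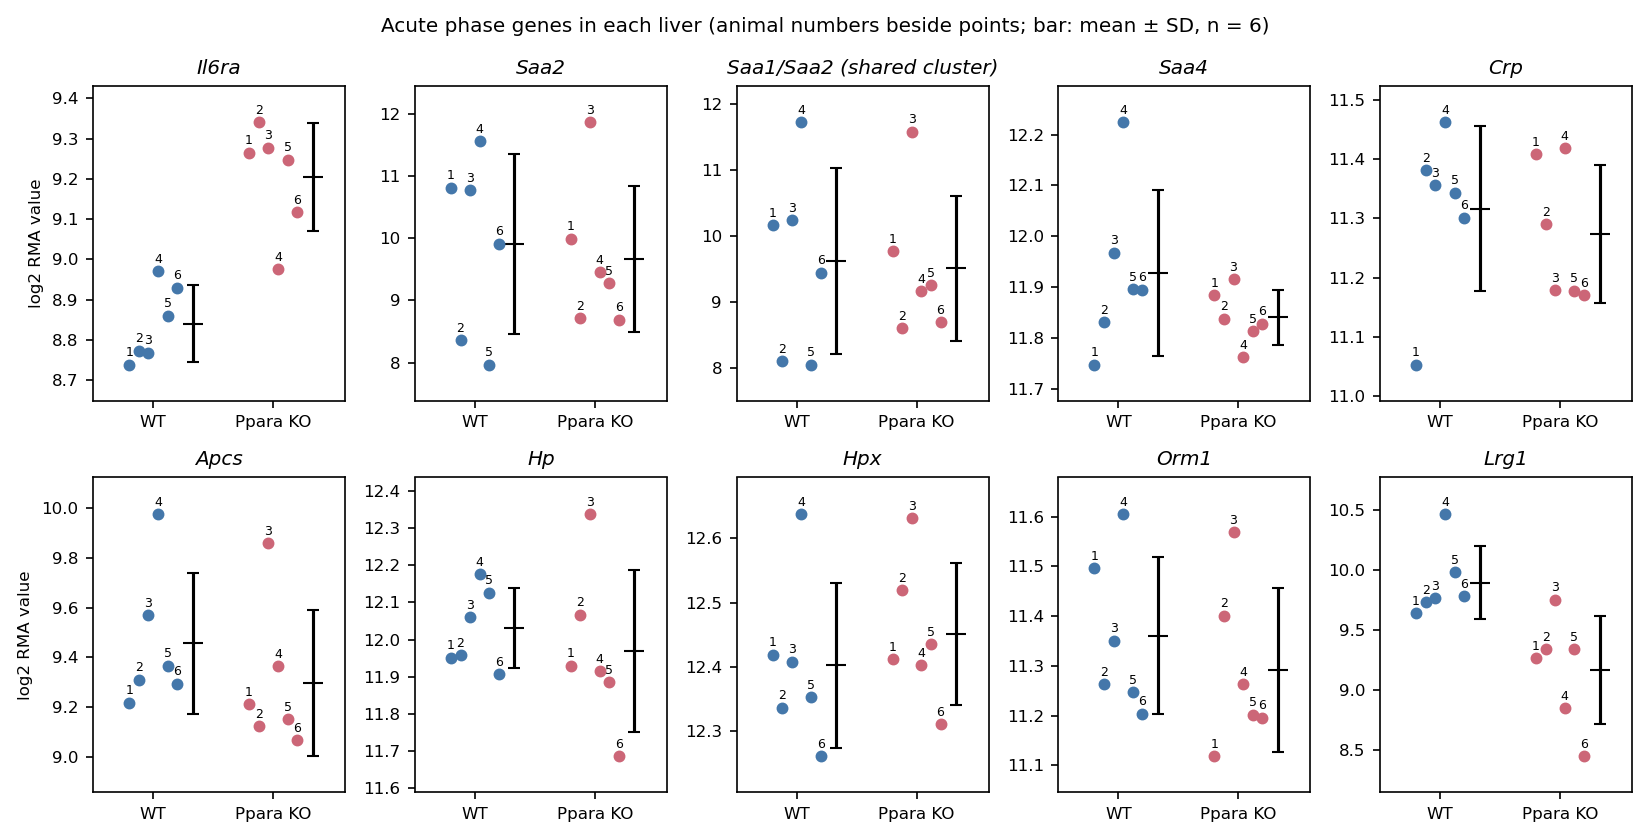
Deposited log2 values (vertical axes, scaled separately for each gene) of the 9 members and the shared Saa1/Saa2 cluster in the 6 WT and 6 Ppara KO livers, with the animal number at each point and the mean ± SD beside each group. The genotypes separate for Il6ra, 5 of 6 Ppara KO livers lie below the WT livers for Lrg1, and WT animal 4 is the highest WT liver in every panel.

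Single animals were high across the set in both genotypes. WT animal 4 was the highest WT liver in 9 of 9 members, whereas it was the highest in 18.0% of all genes tested. Ppara KO animal 3 was the highest Ppara KO liver in 7 of 9 members, the exceptions being Crp and Il6ra, and in 15.6% of all genes tested. At the other end, Ppara KO animal 6 was the lowest of its genotype in 6 of 9 members and WT animal 1 in 5 of 9. The share of all genes in which Ppara KO animal 6 or WT animal 1 was lowest was not counted. These animals were singled out after their values were seen, and the members do not vary independently of each other.

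The deviations from the genotype mean show how the high animals differed in detail. In WT animal 4, Saa2 stood 1.66 above its genotype mean, Lrg1 0.57, Apcs 0.52, Saa4 0.30, Orm1 0.24, Hpx 0.24 and Hp 0.15. In Ppara KO animal 3, Saa2 stood 2.20, Lrg1 0.59, Apcs 0.56, Hp 0.37, Orm1 0.28 and Hpx 0.18 above, while Saa4 was only 0.08 above and Crp was 0.09 below. The order was not the same for all genes: WT animals 1 and 3 were also above the mean in Saa2 (0.91 and 0.87) but below it in Lrg1 (-0.25 and -0.13). Leaving out WT animal 4 and Ppara KO animal 3 together, an alternative chosen after seeing the data, gave differences of -0.73 for Lrg1 (adjusted p = 0.0126) and 0.38 for Il6ra (adjusted p = 0.0151), and again called 2 of the 9 members.

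**Figure D3:**
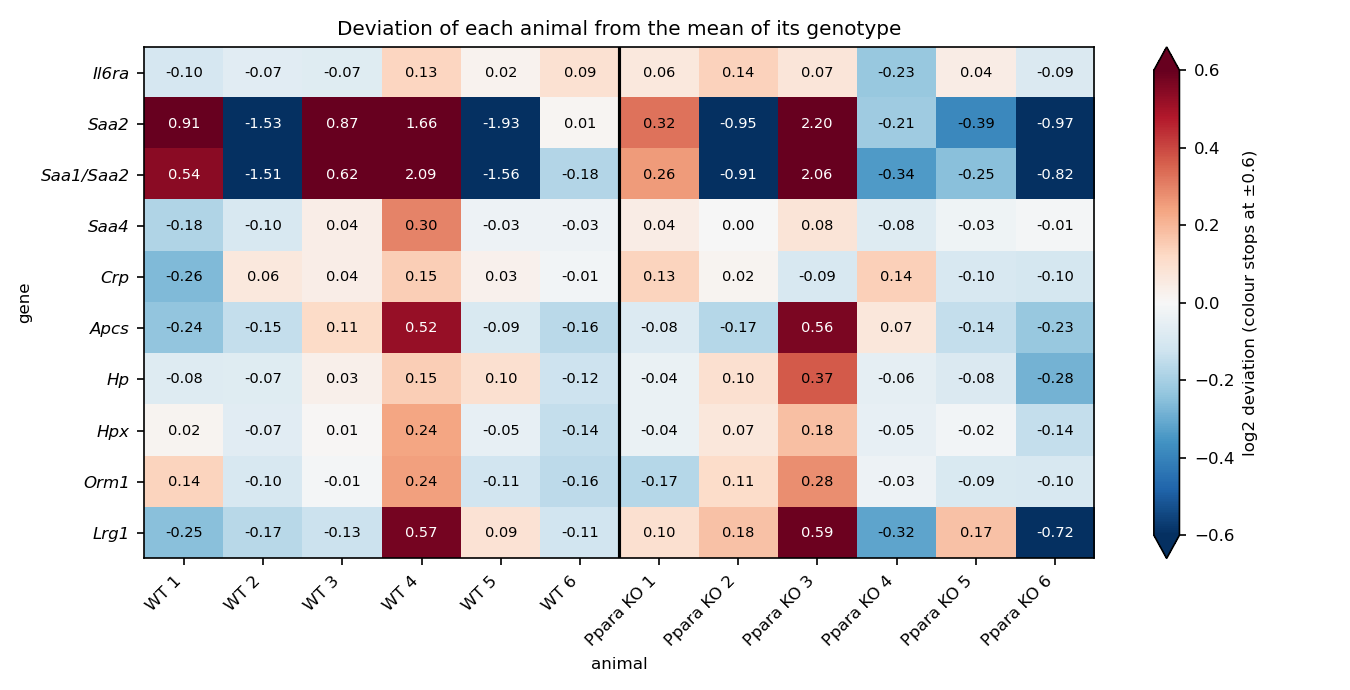
Deviation of each animal (columns) from the mean of its own genotype on the log2 scale for each gene (rows), printed in each cell and coloured from blue (below the mean) to red (above), with the colour stopping at ±0.6. WT animal 4 and Ppara KO animal 3 are above their genotype mean in Saa2, Apcs, Hp, Hpx, Orm1 and Lrg1.

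Relations between members were computed within each genotype over 6 animals, 90 in all with the shared cluster included. Among the 36 pairs of the 9 members, Pearson's r was above 0 in 34 pairs in WT (median 0.649) and in 28 pairs in Ppara KO (median 0.609). Every pair with a negative r held Crp. In WT these were Crp with Saa2 (r = -0.114, rho 0.143) and with Orm1 (r = -0.0684, rho 0.371). In Ppara KO r was negative for Crp with each of the 8 other members, from -0.346 with Orm1 to -0.0723 with Hp. Spearman's rho for the same Ppara KO pairs ran from -0.0857 with Saa4 to 0.543 with Apcs. Without the 2 animals farthest from the median of 1 gene of the pair, r ran from -0.269 with Apcs to 0.95 with Saa4. The negative sign for Crp thus depended on the measure and on single animals. None of the 90 relations passed an adjusted p under 0.05 in the exact permutation test, while 8 pairs of members in WT and 6 in Ppara KO had an unadjusted p under 0.05. For Hpx and Orm1, r was 0.924 and Spearman's rho 0.943 in WT (exact permutation p = 0.00278 and 0.0167, adjusted p = 0.125 and 0.300), and r was 0.882 without the 2 animals farthest from the Hpx median. For the same pair in Ppara KO, r was 0.882 and rho 0.714 (exact permutation p = 0.0181 and 0.136, adjusted p = 0.177 and 0.454), and r was 0.815 without 2 animals. For Saa2 and Apcs in Ppara KO, r was 0.944 and rho 0.943 (exact permutation p = 0.0236 and 0.0167, adjusted p = 0.177 and 0.300), but r fell to 0.449 without the 2 farthest animals, so that relation rests on them. Saa4 and Lrg1 in WT behaved likewise, with an r of 0.921 and a rho of 0.829 (exact permutation p = 0.0222 and 0.0583, adjusted p = 0.177 and 0.350) and an r of 0.114 without 2 animals.

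The genes whose deviations from the genotype mean were most like those of a member over the 12 arrays were ranked among 10377 non-member genes, as a description of these arrays. For Saa2 they were Steap4, a metalloreductase gene (r = 0.916), Tmem238 (0.890), Mib2, a ubiquitin ligase gene (0.878), Lcn2, which encodes the iron-siderophore binding protein lipocalin 2 (0.871), and Irgm2, an interferon-induced GTPase gene (0.854). For the shared cluster they were Tmem238 (0.884), the chemokine gene Cxcl1 (0.881), Irgm2 (0.878), B3galt1 (0.868) and Steap4 (0.862). The nearest genes to Hp were Galnt10 (0.933), Psmd10 (0.904), Tbkbp1 (0.901), Slc41a2 (0.860) and Lztr1 (0.860). For Lrg1 they were Itih4, a plasma protein gene of the acute phase (0.883), Ccdc102a (0.864), C2cd4c (0.836), Smpd1 (0.832) and Psmd10 (0.829). Steap4, Lcn2 and Itih4 were already on the list of other acute phase genes. Lcn2 ran from 9.25 to 10.83 among WT livers and from 8.44 to 11.70 among Ppara KO livers, where animal 3 was again the highest.

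Of the other positive acute phase genes, 29 of 32 were measured, and 3 fell and 0 rose in Ppara KO (10.3%, close to the 10.2% of all genes), with a median difference of -0.09. The falls were Mbl1, which encodes a mannose-binding lectin of innate immunity (9.59 ± 0.14 in WT and 8.95 ± 0.30 in Ppara KO, SD, n = 6 each, difference -0.65), the fibrinogen gamma chain gene Fgg (-0.25) and Fgl1, a fibrinogen-like secreted protein gene (-0.44), with limma adjusted p-values of 0.00306, 0.00992 and 0.0206. In these 3 genes, and in no other of the 29, the groups did not overlap, with every Ppara KO liver below every WT liver. Complete separation in either direction was seen in 6.51% of all genes tested. As these are the called genes, their separation is no independent result. At an unadjusted p under 0.05, 2 genes of the list were higher and 9 lower. Without the share of all genes at that p, such counts have no background to be read against. Fgb, the fibrinogen beta chain gene (-0.14, adjusted p = 0.165), and the hepcidin gene Hamp (0.20, adjusted p = 0.269) were not called. Orm2, a near relative of Orm1, missed the threshold at -0.77 (adjusted p = 0.174), and WT animal 4 stood at 11.70 against 9.41 to 10.30 in the other WT animals.

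Of 15 measured genes whose plasma products fall in inflammation, 1 rose and 1 fell (3 higher and 2 lower at an unadjusted p under 0.05), with a median difference of 0.01. Serpina7, the gene of thyroxine-binding globulin, fell by 2.28 (SE 0.247, limma adjusted p = 2.97e-05), and Serpina6, which encodes corticosteroid-binding globulin, rose by 0.32 (SE 0.0818, adjusted p = 0.0206). Albumin (Alb, -0.03, adjusted p = 0.796) and the fetuin gene Ahsg (-0.0007, adjusted p = 0.996) were not called. In 5 of the 15 genes the groups did not overlap, against 6.51% of all genes tested. Serpina7 was lower in every Ppara KO liver, and Serpina6, Rbp4, Hrg and Itih2 were higher, the last 3 without being called.

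On the signalling side, 20 of 22 genes of the interleukin-6 and STAT3 pathway were measured. Of these, 1 fell and 0 rose (5.0%, against 10.2% of all genes), with a median difference of 0.02. Their unadjusted p was under 0.05 for 3 lower genes and 1 higher gene. The fall was Tyk2, a JAK family kinase gene (6.51 ± 0.09 in WT and 6.21 ± 0.10 in Ppara KO, SD, n = 6 each, difference -0.30, adjusted p = 0.00985), in which the groups did not overlap. Il6st, which encodes the gp130 chain that pairs with the product of Il6ra (-0.03, adjusted p = 0.886), and Lifr, the leukaemia inhibitory factor receptor gene (0.02, adjusted p = 0.934), were not called. WT animal 4 was the highest WT liver in 10 of these 20 genes (against 18.0% of all genes), among them Stat3 and its feedback gene Socs3. Ppara KO animal 3 was the highest of its genotype in 7 of the 20 (against 15.6% of all genes), among them Stat3 but not Socs3. Socs3 was at 6.47 in WT animal 4 and at 5.15 to 5.76 in the other WT animals, while in Ppara KO animal 3 it was at 5.46, below animal 2 of that genotype at 5.58.

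Of 20 measured genes of interleukin-1, tumour necrosis factor and NF-κB, 3 fell and 1 rose (20.0%, against 10.2% of all genes). Their median difference was -0.01, and 4 were lower and 4 higher at an unadjusted p under 0.05. The cytokine genes Il1b (-0.78, SE 0.133, adjusted p = 0.00156) and Il1a (-0.47, SE 0.0881, adjusted p = 0.00307) and the kinase gene Irak1 (-0.30, SE 0.0868, adjusted p = 0.0404) fell, and the cytokine gene Tnf rose (0.44, SE 0.111, adjusted p = 0.0195). WT livers held Il1b at 6.39 to 7.26, and all Ppara KO livers were lower, at 5.78 to 6.31. Rela, an NF-κB subunit gene (-0.02, adjusted p = 0.916), and Il1rap (0.06, adjusted p = 0.783) were not called.

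Among 17 measured transcription factors of hepatocyte and acute phase promoters, 3 rose and 2 fell (29.4%, against 10.2% of all genes), with a median difference of -0.06. At an unadjusted p under 0.05, 5 were higher and 5 lower. The rises were Cebpa (0.38, SE 0.0640, adjusted p = 0.00131), Cebpe (0.35, SE 0.0691, adjusted p = 0.00408) and Cebpb (0.37, SE 0.0993, adjusted p = 0.0285), the last named outside the naming rule. All 3 encode C/EBP factors, but Cebpd, another C/EBP gene on the list, was not called (-0.06, adjusted p = 0.855), with means of 4.31 ± 0.18 in WT and 4.25 ± 0.36 in Ppara KO (SD, n = 6 each). WT livers held Cebpa at 9.04 to 9.29, and all Ppara KO livers were higher, at 9.48 to 9.64. Foxa2 (-0.48, adjusted p = 0.011) and Sp1 (-0.33, adjusted p = 0.00696) fell, and Hnf4a (0.12, adjusted p = 0.360) and Creb3l3 (-0.29, adjusted p = 0.0535) were not called.

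Of 11 measured genes of haem, haemoglobin and iron handling, 2 rose and 1 fell (27.3%, against 10.2% of all genes), with a median difference of 0.05. At an unadjusted p under 0.05, 3 were higher and 2 lower. Lrp1, whose product takes up haem-hemopexin complexes, fell by 0.31 (SE 0.0617, adjusted p = 0.00468), while the iron exporter gene Slc40a1 (0.39, SE 0.0875, adjusted p = 0.00928) and the haem oxygenase gene Hmox1 (0.32, SE 0.0922, adjusted p = 0.0359) rose. Fth1 (0.07, adjusted p = 0.537) and Tfr2 (-0.11, adjusted p = 0.380) were not called. Of 14 measured genes for partners of serum amyloid A and pentraxins, 1 fell and 0 rose (7.14%, against 10.2% of all genes). Their median difference was 0.06, and 4 were lower and 1 higher at an unadjusted p under 0.05. Cd36, a scavenger receptor and fatty acid transporter gene, fell by 0.52 (SE 0.136, limma adjusted p = 0.0229). Eng (-0.19, adjusted p = 0.0955) and C1qb (0.08, adjusted p = 0.740) were not called.

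**Figure D4:**
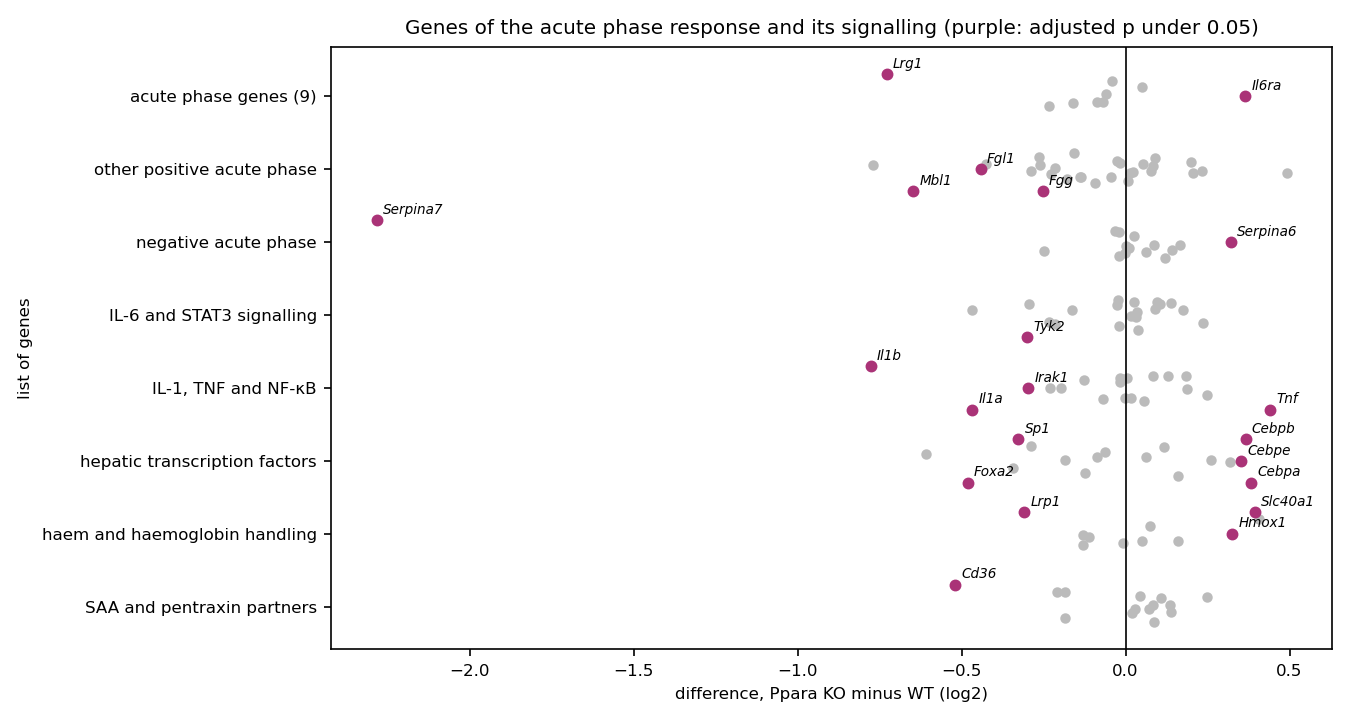
Difference between Ppara KO and WT (horizontal axis, log2) of each measured gene, 1 point per gene, by list (rows), with genes at an adjusted p under 0.05 in purple and named; vertical scatter within a row has no meaning. Il6ra and the 3 called C/EBP genes lie between 0.35 and 0.38 above 0, and Serpina7 at -2.28 is the lowest point.

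Markers of cells other than hepatocytes were read beside these results. Of 13 neutrophil markers 0 were called by limma (1 at an unadjusted p under 0.05). Their mean ran from 3.61 to 3.89 among WT livers and from 3.51 to 4.18 among Ppara KO livers. These means lay below or close to the array medians of 4.13 to 4.17, so the signal is dim. The highest was that of Ppara KO animal 3, in which 7 of the 13 were the highest of the genotype, against 15.6% of all genes. S100a8, a defining neutrophil gene, was at 4.40 in that animal and at 2.71 to 3.28 in the other Ppara KO animals, whereas in WT animal 4 it was at 3.29, inside the range of the other WT animals. Another defining neutrophil gene, Ly6g, stayed between 1.92 and 3.07 on all 12 arrays. Of 12 Kupffer cell and macrophage markers 1 rose (8.33%, against 10.2% of all genes), Cd5l (0.45, limma adjusted p = 0.0351). At an unadjusted p under 0.05, 3 were higher and 0 lower. Their mean ran from 7.33 to 7.73 among WT livers. It was 8.25 in Ppara KO animal 2 and ran from 7.55 to 7.78 in the other Ppara KO animals. The macrophage receptor gene Marco was not called (0.72, adjusted p = 0.110), although every Ppara KO liver lay above every WT liver, at 6.04 to 6.22. Marco was at 8.39 in Ppara KO animal 2 and at 6.28 to 6.74 in the other Ppara KO animals. Stellate and endothelial markers, 10 each, had 0 calls by limma (4 and 4 at an unadjusted p under 0.05). Of 9 lymphocyte markers 1 rose (11.1%, close to the 10.2% of all genes), with 2 higher and 0 lower at an unadjusted p under 0.05. The rise was Cd8a (0.46, limma adjusted p = 0.0115), a dim signal with both group means below every array median. The part of these cells in the values of the acute phase genes was not tested.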

How the data were processed

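Liver RNA of 6 WT and 6 Ppara KO mice was measured on 1 array per animal. The submitters' processing notes name RMA and Partek without versions, and the table the authors deposited holds log2 values. RMA brings arrays to a common distribution, so a shift shared by most genes would not be seen, and it compresses the differences of dim genes.

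Of 41345 transcript clusters, the platform annotation gave 23521 a single gene symbol and 1814 several. A gene with several clusters of its own was represented by the brightest on average (22180 genes). Genes were fitted with limma 3.58.1 in R 4.3.3 (lmFit and eBayes, 2-sided, no covariate, Benjamini-Hochberg over all genes), and the fit was tested on simulated data. Precision is set by the 12 arrays, and the SE of a difference had a median of 0.0926 over genes. Members were also compared by an exact permutation test over 924 assignments. Named genes are all members, up to 4 called and 2 uncalled genes of each list, and the 5 nearest patterns. Other genes are named where a text counts or singles them out after their values were seen. The members, lists and alternatives were chosen with earlier results of these data known. Saa1, read only by a shared cluster, entered no test of its own.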

Additional observations from a re-analysis of the deposited data

Results flagged for a closer look

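Ppara KO animal 3 stood apart in Apcs, at 9.86 against 9.36 for the next highest of the 6 Ppara KO animals, a gap of 0.626 of the whole range of that group, only just past the critical value of Dixon's test. The same animal was the highest of its genotype in 7 of 9 members. Chance alone sets about 1 in 20 groups apart in this way, and the members and the shared cluster were examined in both genotypes.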

How the results depend on the processing

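The 2 calls among the 9 members, Il6ra higher and Lrg1 lower, were each kept in all 12 fits that left out 1 animal, with 2 to 2 members called in total, and with 1817 to 2130 called genes in all, 755 to 930 of them higher and 1029 to 1238 lower. An adjusted p under 0.01 left 1070 called genes (418 higher and 652 lower) and 1 member, Il6ra, with 0 lower. Treat against a 1.2-fold change left 329 genes (105 higher and 224 lower) and 0 members, 0 higher and 0 lower. Without WT animals 1, 3 and 5 together there were 1008 genes (390 higher and 618 lower) and 0 members called, 0 higher and 0 lower. Adjusting over all transcript clusters, an alternative added after seeing the data, left 1 member called, with 0 lower, and 657 genes higher. Saa2 ran from -0.6727 to 0.0992 as each animal was left out in turn, with the turned sign only without WT animal 4, and Crp turned to 0.006 without WT animal 4 and Ppara KO animal 3 together. Over all alternatives Il6ra ran from 0.31 to 0.41 and Lrg1 from -0.845 to -0.58. With the replicate block both calls held (adjusted p = 0.038 for Il6ra and 0.045 for Lrg1, with 1672 called genes). The labels name no pairing behind the animal numbers. Over all genes, deviations of same-numbered animals correlated between -0.0471 and 0.0431, and those of differently numbered animals between -0.0486 and 0.055. Such values over all genes cannot exclude a pairing that touches only some genes. Leaving out WT animals 1, 3 and 5 changed both the number of animals and the adipocyte marker level of the WT group. The cause of the lost calls was not tested.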

Other observations

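Saa3, which encodes a serum amyloid A protein and neighbours Saa4 in the gene order, was not high in the same WT animal as the members. It was at 6.93 in WT animal 4 and at 10.14, 9.62 and 9.17 in WT animals 3, 1 and 6, whereas Saa2 was at 11.56 in WT animal 4 and at 10.77, 10.81 and 9.91 in those animals. Cd14, a receptor gene for bacterial lipopolysaccharide, was likewise at 5.71 in WT animal 4 and at 7.07 and 7.47 in WT animals 1 and 6. In Ppara KO animal 3 Saa3 was at 11.53, Cd14 at 8.33 and Saa2 at 11.86, the highest of the genotype for all 3 genes. Saa3 and Cd14 were thus high in one of these animals and not in the other. With 1 such animal in each genotype, this difference was not tested.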
